A study of Mus musculus with 12 samples.

Results

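The insulin-like growth factor (IGF) genes described here are the ligand Igf1, the receptor Igf1r and the binding proteins Igfbp2, Igfbp3, Igfbp4, Igfbp5, Igfbp6 and Igfbp7, which are 8 of the 57010 genes in the deposited table. They were chosen from measured values of these libraries: Igfbp4 for its low level in KO against WT cells and Igfbp5 for its rise with retinoic acid (RA), and the other 6 genes for belonging to the same family. The study's text also names Igf1 in RA-treated KO cells. Those levels are therefore given as a description, without a test, and so are the other values that contain them.

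IGF ligands are secreted peptides that act through the receptor tyrosine kinase Igf1r, from which the signal passes by insulin receptor substrates to PI3K, AKT and mTOR. The binding proteins are secreted as well and hold the ligands outside the cell, so that they can limit, store or deliver them. Proteases outside the cell cut the binding proteins and set the ligand free. In the developing brain this pathway is known for supporting the growth and survival of neural progenitors.

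RNA came from NE-4C, an established mouse neural progenitor line derived from embryonic day 9 brain that lacks p53. WT cells and a Faf2 KO line, made by CRISPR/Cas9 deletion of exon 4 and grown from a picked colony, were compared. Faf2 encodes an adaptor of endoplasmic reticulum associated degradation. In each genotype 3 libraries came from cells left without induction (WT NO and KO NO) and 3 from cells given 1 µM all-trans RA for 24 h and collected on day 3 (WT RA and KO RA). The 3 libraries of a group came from independent passages of one line, so p-values measure the spread between passages and not between lines. The labels put the untreated cells at 0 days, so RA and days in culture cannot be told apart.

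The 12 libraries held between 17370069 and 30738717 estimated counts. These counts are corrected for gene length, and levels are given as CPM, the counts divided by library size after TMM scaling, so that they can be compared between genes as well as between libraries. A floor of 3 estimated counts corresponded to 0.0838 to 0.297 CPM. This floor covers counting error only, and that roughly, since the values do not number fragments. KO RA replicate 3 stood apart, with a TMM factor of 0.394 against 0.872 to 1.28 in the other libraries, and its genes differed from the rest of its group by a median of 0.987 on the log2 scale, against 0.159 to 0.559 elsewhere. Results that rest on it are given with and without it. Faf2 itself lay at 21.0, 21.7 and 25.4 CPM in KO NO and at 50, 38.8 and 36.0 CPM in WT NO, which do not overlap, but its fall of 0.87 on the log2 scale was not called (edgeR adjusted p = 0.179). In KO RA it lay at 36.1, 34.3 and 18.7 CPM, overlapping the 35.1 to 49.1 CPM of WT RA. The gene-level count does not show whether exon 4 is present. Of the RA targets, Cyp26a1, which degrades RA, rose in both genotypes (log2 fold change 2.49 in WT, adjusted p = 0.0339, and 3.72 in KO, adjusted p = 0.00062), while Rarb was not called in either. The progenitor markers Nes, Sox2, Pax6, Otx2 and Cdh2 were detected, and summed to between 169 and 324 CPM in every library.

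Igfbp4 and Igfbp5 are the genes on which the family's pattern turns, and the 250 bases before the start of each are shown so that their promoters can be set side by side. Igfbp4 lies on chromosome 11 (GRCm39 chr11:98932064-98945218, plus strand, 4 exons) and Igfbp5 on chromosome 1 (chr1:72897091-72914043, minus strand, 4 exons). The windows are chr11:98931814-98932063 on the plus strand and chr1:72914044-72914293 on the minus strand, read 5′ to 3′ from the GRCm39 genome, with capitals marking the letters TATAAA of a TATA box. Other AT-rich forms, such as the tatttaaa near the end of the Igfbp5 window, were not searched. The lack of capitals there does not show that Igfbp5 has no such element.
Igfbp4: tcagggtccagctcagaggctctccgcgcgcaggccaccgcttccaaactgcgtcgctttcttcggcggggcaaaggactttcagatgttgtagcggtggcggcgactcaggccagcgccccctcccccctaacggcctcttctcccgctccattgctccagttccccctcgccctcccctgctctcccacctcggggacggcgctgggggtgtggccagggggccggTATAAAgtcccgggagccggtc
Igfbp5: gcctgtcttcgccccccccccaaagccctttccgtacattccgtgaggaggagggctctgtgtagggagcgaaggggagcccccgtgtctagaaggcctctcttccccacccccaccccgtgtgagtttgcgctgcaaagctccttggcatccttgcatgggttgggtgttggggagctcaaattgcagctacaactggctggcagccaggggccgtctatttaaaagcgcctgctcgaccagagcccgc

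The letters TATAAA were searched on both strands and start 22 bases before the start of Igfbp4, and 11.9% of 21757 promoter windows of this length hold them. The Igfbp4 window is 68.4% G and C with 21 CpG dinucleotides, and the Igfbp5 window 62.0% with 11, where the medians over all windows are 53.2% and 8. The letters AGGTCA, the core of the element that RA receptors bind, were found on neither strand in the windows of the 8 genes and are in 13.1% of all windows. No window of the 8 held 2 such cores in a row at a spacing of 1, 2 or 5 bases either, which 0.184%, 0.0919% and 0.0552% of windows do. Igfbp5 and Igfbp2 are neighbours on chromosome 1 (Igfbp2 at chr1:72863606-72891634, plus strand), with their ends facing each other 5456 bp apart and no coding gene between them.

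Igfbp2 was the most abundant of the 8 genes in each of the 12 libraries, and accounted for between 82.7% and 94.0% of the estimated counts on the 6 binding proteins. In WT NO the order of mean levels was Igfbp2 at 481 ± 139 CPM (SD, n = 3), Igfbp3 at 33.9 ± 11.4, Igfbp4 at 23.8 ± 8.13, Igf1r at 10.3 ± 0.815, Igfbp7 at 0.877 ± 0.468, Igfbp5 at 0.340 ± 0.0833 and Igf1 at 0.0704 ± 0.122, with Igfbp6 listed at 0. Neighbours in this order whose libraries overlap are Igfbp3 and Igfbp4, with ranges of 21.9 to 44.7 and 18.5 to 33.1 CPM, while Igfbp7 and Igfbp5 met at 0.407 CPM. In KO NO, Igfbp4 stood behind Igf1r (4.03 ± 0.493 against 11.1 ± 1.33 CPM, SD, n = 3), and in WT RA Igfbp5 stood above it (16.0 ± 2.38 against 11 ± 0.831 CPM). The levels by library show these shifts beside the flat panels of Igf1r and Igfbp3.

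**Figure D1:**
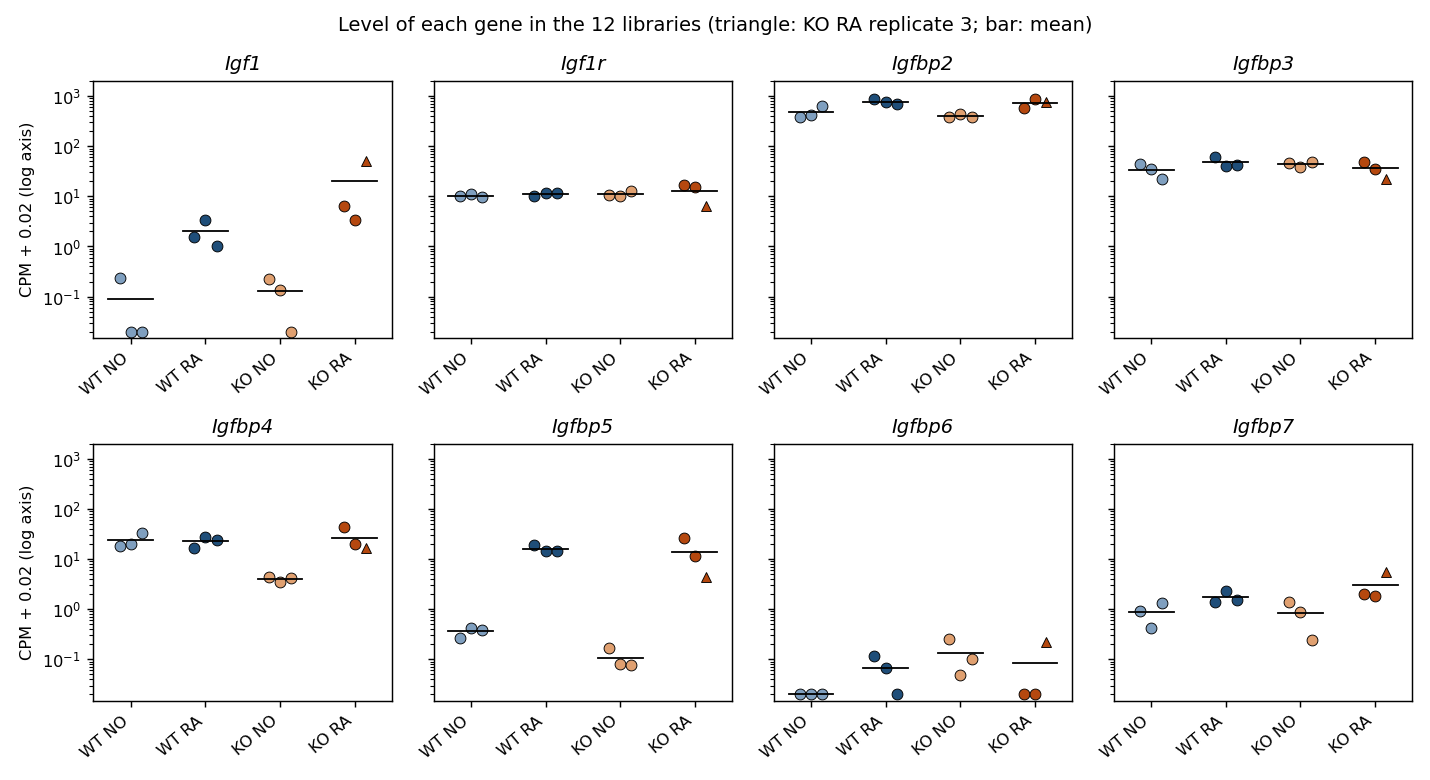
Level of the 8 genes in the 12 libraries, as CPM plus 0.02 on a log axis, by group, with each point a library, the bar the group mean and the triangle KO RA replicate 3. Igfbp4 is low in the 3 KO NO libraries alone, Igfbp5 and Igf1 are higher in all 6 RA libraries than in the NO libraries of their genotype, and Igfbp6 stays near the floor.

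The ligand Igf1 was near the limit of detection without RA and was detected in every RA library. It lay at 0.211, 0 and 0 CPM in WT NO and at 1.54, 3.39 and 1.00 CPM in WT RA, so that the lowest RA library was 4.74 times the highest NO library. The WT NO libraries held 5.52, 0 and 0.397 estimated counts. In WT cells the log2 fold change was 4.75 (SE 1.42), which was not called (adjusted p = 0.195), while without KO RA replicate 3 in the fit it was 4.76 and was called (adjusted p = 0.0299). In bulk RNA, more cells expressing a gene and more RNA per cell cannot be told apart.

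In KO cells Igf1 lay at 0.205, 0.118 and 0 CPM in NO and at 6.32, 3.30 and 49.9 CPM in RA. The lowest KO RA library was 16.1 times the highest KO NO library, and KO RA replicate 3 was far above the other two. The fitted log2 fold change was 7.46 (SE 1.42) with that library and 5.42 without it. Scaled to its own total alone, without TMM, KO RA replicate 3 had 19.6 CPM of Igf1 against 8.06 and 4.04 in replicates 1 and 2, so it was the highest by that scaling too. Between KO RA and WT RA the libraries overlapped, and the log2 fold change of 3.31 (SE 1.12) dropped to 1.27 without KO RA replicate 3. This value holds the KO RA levels that the study's text names, so no test is read from it.

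The receptor Igf1r, which lies on chromosome 7 (chr7:67601518-67883416, plus strand), was nearly level. It had 10.2, 11.2 and 9.58 CPM in WT NO, 10.0, 11.4 and 11.6 in WT RA, 10.5, 10.1 and 12.6 in KO NO, and 17.1, 15.6 and 6.34 in KO RA. The 9 libraries outside KO RA thus lay within 9.58 to 12.6 CPM, and the KO RA libraries lay on both sides of that range. No comparison was called, and the log2 fold changes lay between 0.09 and 0.25, with 95% intervals of −0.51 to 0.71 for KO NO against WT NO and −0.52 to 0.70 for WT RA against WT NO. KO RA replicate 3 decided this for KO RA: without it Igf1r was called higher in KO RA than in KO NO (log2 fold change 0.55, adjusted p = 0.0324) and than in WT RA (0.57, adjusted p = 0.0414). An exon of Pgpep1l overlaps Igf1r on the other strand, and the sources used here do not state whether counting used the strand.

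Igfbp4, a binding protein that mostly restrains IGF action, was low in KO cells without RA and not in KO cells with it. It lay at 18.5, 19.7 and 33.1 CPM in WT NO, at 16.7, 27.9 and 24.5 in WT RA, at 4.39, 3.47 and 4.22 in KO NO, and at 42.9, 19.7 and 16.7 in KO RA. The 3 KO NO libraries lay below all 9 others, and KO RA overlapped both WT groups. The description of Igfbp4 as low in KO thus held for the untreated cells, with a log2 fold change of −2.56 (SE 0.39), and not after RA, with 0.20 (SE 0.37).

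In WT cells RA left the libraries of Igfbp4 overlapping, with a log2 fold change of −0.05 (SE 0.37, 95% interval −0.77 to 0.68). It holds WT NO levels that chose the gene and is given without a test. In KO cells every RA library was above every NO library, the lowest by 3.8 times, and the log2 fold change was 2.72 (SE 0.40), or 2.95 without KO RA replicate 3. This value rests on the KO NO libraries whose low level chose the gene, so no test is read from it. Scaled to library totals alone, KO RA replicate 3 had 6.55 CPM of Igfbp4, still above the 3.82 to 5.12 CPM of KO NO. The RA response of KO minus that of WT, which holds the same libraries and is likewise given without a test, was 2.76 (SE 0.54), or 2.99 without KO RA replicate 3.

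Igfbp5, which binds IGFs and also matrix proteins, was almost silent without RA and abundant after it. It lay at 0.247, 0.407 and 0.366 CPM in WT NO and at 18.7, 14.5 and 14.7 in WT RA, and at 0.146, 0.0592 and 0.0558 in KO NO and at 26.5, 11.5 and 4.36 in KO RA. The lowest RA library was 35.6 times the highest NO library in WT and 29.9 times in KO. These are the values that chose the gene, and their log2 fold changes were 5.54 (SE 0.63) in WT and 7.28 (SE 0.71) in KO. The KO NO libraries hold 4.81, 1.84 and 2.23 estimated counts, at or near the floor, which makes the KO fold imprecise.

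Between genotypes, the 3 KO NO libraries of Igfbp5 lay below the 3 WT NO libraries, with a log2 fold change of −1.91 (SE 0.73). KO RA overlapped WT RA, with a log2 fold change of −0.17 (SE 0.50, 95% interval −1.15 to 0.81), or 0.24 without KO RA replicate 3. Both values hold levels that chose the gene, so no test is read from either. The KO RA libraries ranged over 4.36 to 26.5 CPM, where WT RA ranged over 14.5 to 18.7. The RA response in KO minus that in WT was 1.74 (SE 0.88), which holds the values that chose the gene and carries the low KO NO counts.

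Igfbp2, the main binding protein of these cells and of the embryonic brain, was higher after RA in both genotypes without being called. It lay at 378, 427 and 639 CPM in WT NO and at 892, 747 and 702 in WT RA, and at 387, 442 and 391 in KO NO and at 577, 879 and 773 in KO RA. RA and NO libraries did not overlap in either genotype, though the lowest WT RA library was only 1.10 times the highest WT NO library. The log2 fold change was 0.70 (SE 0.28, adjusted p = 0.325) in WT and 0.87 (SE 0.28, adjusted p = 0.0931) in KO, and in KO it was called without KO RA replicate 3 (0.83, adjusted p = 0.0365). Scaled to library totals alone, that library had 304 CPM of Igfbp2, below the 450 to 485 CPM of KO NO, and WT RA at 625 to 777 CPM overlapped WT NO at 390 to 770, so the separation depends on the scaling in both genotypes. KO and WT overlapped without RA and with it, with log2 fold changes of −0.24 (adjusted p = 0.857) and −0.07 (adjusted p = 0.921). The summed level of the 6 binding proteins followed Igfbp2, at 442, 483 and 696 CPM in WT NO, 990, 832 and 784 in WT RA, 439, 484 and 443 in KO NO, and 698, 948 and 822 in KO RA.

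Igfbp3, the main carrier of IGFs in blood, overlapped between groups in all 4 comparisons. It ranged over 21.9 to 44.7 CPM in WT NO, 40.4 to 61.8 in WT RA, 38.2 to 47.5 in KO NO and 22.7 to 49.6 in KO RA. Its log2 fold changes were 0.36 for KO NO against WT NO, −0.42 for KO RA against WT RA, 0.50 for RA in WT and −0.28 for RA in KO, with adjusted p between 0.536 and 0.789. Exons of a pair of long noncoding genes on the other strand overlap Igfbp3.

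Igfbp7, a related secreted protein with weak affinity for IGFs, was present at low levels. It lay at 0.880, 0.407 and 1.34 CPM in WT NO, 1.39, 2.33 and 1.48 in WT RA, 1.35, 0.859 and 0.223 in KO NO, and 1.99, 1.81 and 5.45 in KO RA. RA libraries lay above NO libraries in both genotypes, by as little as 1.04 times in WT and 1.34 times in KO, although by library totals alone the WT groups overlapped. The log2 fold changes of 0.98 in WT (adjusted p = 0.630) and 1.90 in KO (adjusted p = 0.129) were not called, and the latter was 1.21 without KO RA replicate 3. Exons of Polr2b on the other strand overlap those of Igfbp7. Igfbp6, which prefers the ligand Igf2, did not pass the filter on low counts: it was listed at 0 in WT NO and did not exceed 0.234 CPM, or 7.54 estimated counts, in any library. At this depth its levels could not be compared.

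**Figure D2:**
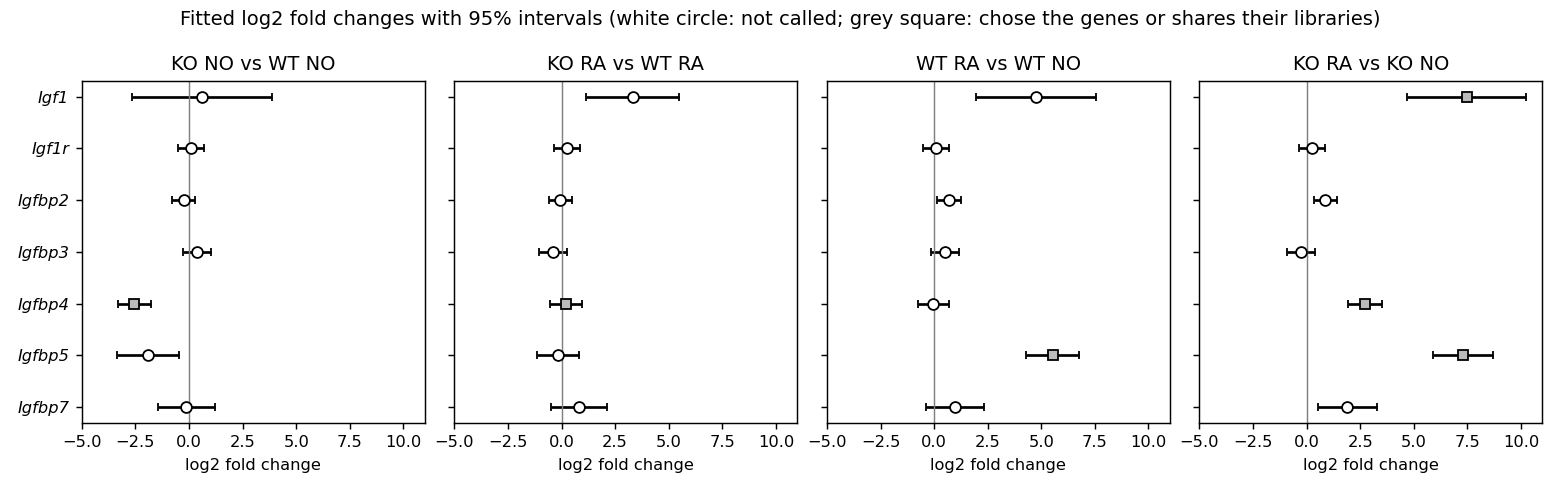
Fitted log2 fold changes of the 7 genes tested, with 95% intervals, in the 4 comparisons named above the panels, where white circles mark values that were not called and grey squares mark values that chose the genes or share the libraries that did. Igf1r and Igfbp3 sit near 0 throughout, and the intervals of Igf1 are the widest. White circles of Igfbp5 between genotypes, Igfbp4 for RA in WT and Igf1 in KO RA against WT RA also hold such libraries.

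Counted over the family, 7 of the 8 genes were tested. In KO NO against WT NO, 1 of 7 was called (Igfbp4, lower), where 1.14% of the 16502 genes tested were called, and in KO RA against WT RA 0 of 7, where 1.24% were. In WT RA against WT NO, 1 of 7 was called (Igfbp5, higher), where 0.406% of all genes were, and in KO RA against KO NO 3 of 7 (Igf1, Igfbp4 and Igfbp5, all higher), where 5.48% were. These 5 calls are all among the values that chose the genes or share the libraries that did, so nothing is read from the counts. For the RA response of KO minus that of WT, edgeR called 0 of 7 and 0% of all genes, with 1423 of 16502 genes at an unadjusted p under 0.05. Groups did not overlap for 2, 0, 4 and 5 of the 7 in these comparisons in the same order, where 30.7%, 20.9%, 29.1% and 30.2% of all genes did not. The median log2 fold change of the 7 was −0.12, 0.20, 0.70 and 1.90, beside −0.02, 0.09, −0.01 and 0.11 over all genes. These medians and the overlap counts include Igf1, Igfbp4 and Igfbp5, so nothing is read from them either. In KO RA against KO NO the remaining genes had 0.24 (Igf1r), 0.87 (Igfbp2), −0.28 (Igfbp3) and 1.90 (Igfbp7), none of them called.

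The genes most like Igfbp5 across the 12 libraries, by Pearson correlation of log2 CPM among 9590 genes with a mean of at least 5 CPM, were Col3a1 (r = 0.978), Mex3b (0.967), Prrx1 (0.962), Zfp503 (0.959) and Cdh11 (0.942). The 12 points fall into NO and RA clusters and share their libraries, so these values describe a common shift. Col3a1, a fibrillar collagen, lay at 0.488 to 0.739 CPM in WT NO, 18.9 to 27.1 in WT RA, 0.352 to 0.652 in KO NO and 15.9 to 71.7 in KO RA. Prrx1, a transcription factor of limb and craniofacial mesenchyme, lay at 0.591 to 0.669, 10.7 to 15.9, 0.205 to 0.475 and 14.5 to 37.1 CPM in the same order. Igfbp4 was followed most closely by Ak3 (0.930), Trp53inp2 (0.923), Pcolce (0.909), Itga9 (0.909) and Praf2 (0.908).

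Some markers of mesenchymal cells were higher in the RA libraries, as Igfbp5 and Igf1 were. Of 9 such markers, 3 were called higher in WT RA than in WT NO (Col1a2, Col3a1 and Prrx1), where 0.406% of all genes were called, and 4 in KO RA than in KO NO (these and Col1a1), where 5.48% were. Dcn, Lum, Pdgfra, Pdgfrb and Twist1 were called in neither, with log2 fold changes of 1.61, −0.89, 1.71, 0.11 and 0.11 in WT. In KO they were 4.01, 0.87, 1.45, 0.64 and 0.33, and the libraries of Lum, Pdgfrb and Twist1 overlapped in both genotypes. Their summed level was 25.5 to 68.7 CPM in WT NO, up to 124 (median 113) in WT RA, 43.1 to 50.9 in KO NO and 122 to 436 in KO RA, and none of the 9 was at 0 in all libraries of a group. In KO RA replicate 3, where Igf1 was highest, Dcn reached 345 CPM against 23.0 and 12.7 in the other KO RA libraries, and 5 smooth muscle markers summed to 997 CPM against 196 and 114. Igfbp5 was lowest of the KO RA group in that same library. The 6 neuronal markers summed to 138 to 158 CPM in WT RA and 141 to 203 in KO RA against 77.6 to 107 in WT NO and 69.5 to 87.2 in KO NO, but they did not move as one. The 203 CPM was that of KO RA replicate 3, with its TMM factor of 0.394, so the separation in KO depends on the scaling. None was called in WT, where 0.406% of all genes were, and Map2 and Tubb3 were called higher with RA in KO, where 5.48% were. Rbfox3 had log2 fold changes of −2.73 in WT and −1.77 in KO that were not called, with its RA libraries below its NO libraries in both genotypes. Endothelial markers summed to 4.36 to 12.9 CPM in KO RA and to at most 2.84 in any other library, with the defining gene Cdh5 at 0 in all NO libraries. The 4.36 was KO RA replicate 3, with a TMM factor of 0.394, and the 2.84 WT NO replicate 3, with 1.21. This separation therefore depends on the scaling. The part of these markers in the levels of Igfbp5 and Igf1 was not tested.

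**Figure D3:**
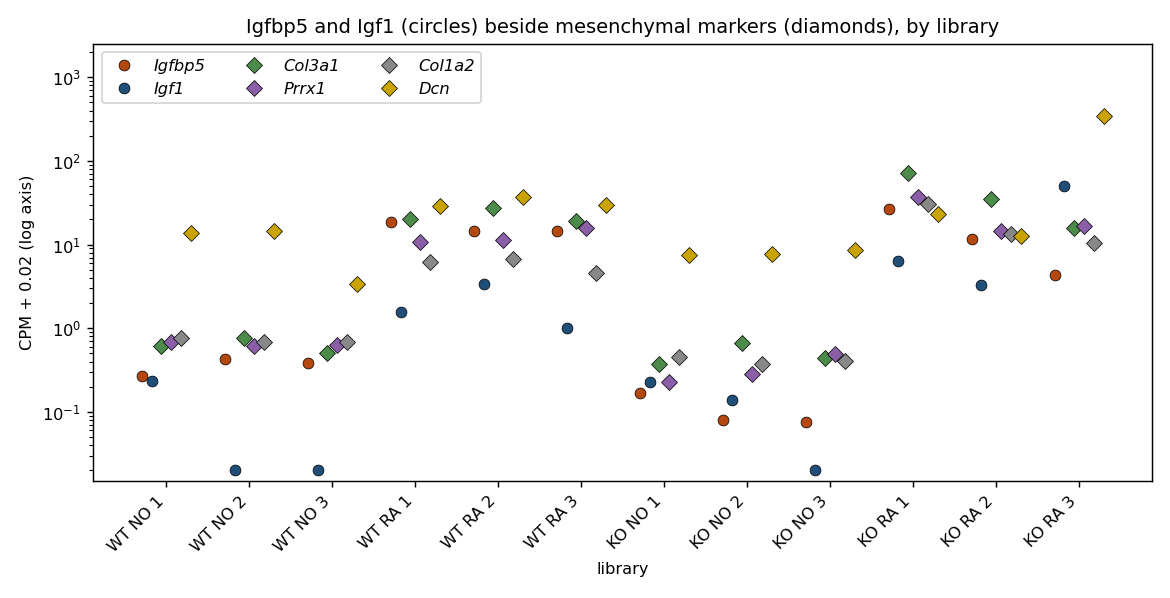
Levels of Igfbp5 and Igf1 (circles) and of the mesenchymal markers Col3a1, Prrx1, Col1a2 and Dcn (diamonds) in each of the 12 libraries, as CPM plus 0.02 on a log axis. Igfbp5, Col3a1, Prrx1 and Col1a2 step up together in the RA libraries, while Igf1 and Dcn peak in KO RA replicate 3 at 49.9 and 345 CPM.

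The other genes of the IGF pathway were followed with a list of 46 genes, of which 41 were tested. In KO NO against WT NO 0 were called higher and 1 lower, in KO RA against WT RA 2 and 0, in WT RA against WT NO 1 and 0, and in KO RA against KO NO 4 and 2, beside the percentages of all genes given for the family. The median log2 fold change of the 41 was 0.01, −0.06, 0.02 and −0.17 in these comparisons. No gene of the list was called for the difference in RA response, and 5 of 41 had an unadjusted p under 0.05. Without KO RA replicate 3 the calls numbered 9, 8, 5 and 12 in these comparisons and 2 for the difference in RA response, and took in Igf2r, Igfbpl1, Irs2 in NO and Pik3cb in WT. Calls rose over all genes as well in that fit, to 1521, 1707, 1868, 2776 and 232 of 17327 genes. With all libraries they numbered 188, 205, 67, 904 and 0 of 16502.

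Among the ligands, Igf2, the fetal IGF, was called in 3 of the comparisons. It lay at 7.96, 6.06 and 19.0 CPM in WT NO, 104, 138 and 86.9 in WT RA, 2.81, 2.40 and 2.37 in KO NO, and 292, 196 and 192 in KO RA. RA libraries were above NO libraries in both genotypes, with the lowest RA library 4.57 times the highest NO library in WT and 68.3 times in KO, and KO NO lay below WT NO while KO RA lay above WT RA. By library totals alone KO RA replicate 3 had 75.3 CPM of Igf2, below the 77.4 to 140 CPM of WT RA and still above all NO libraries. Igf2 rose with RA in WT (log2 fold change 3.32, SE 0.42, adjusted p = 0.0134) and in KO (6.48, SE 0.49, adjusted p = 0.000168), and without RA it was lower in KO than in WT cells (−2.12, SE 0.41, adjusted p = 0.0336). KO RA against WT RA was not called (1.05, SE 0.39, adjusted p = 0.214), and the RA response of KO minus that of WT was 3.16 (SE 0.56, adjusted p = 0.130). The call in KO cells held in each of 12 fits that left out 1 library, whereas the call in WT held in 8 of them and that of KO NO against WT NO in 5. In the fits that lost these calls, all-gene calls numbered 0 to 8 for RA in WT and 40 to 118 for KO NO against WT NO. Igf2 shares exons with another coding gene on its strand and with a pair of noncoding genes on the other, Igf2os among them, so its counts are uncertain to that extent. The insulin genes Ins1 and Ins2 were listed at 0 in every library.

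The 4 genes of the list called higher with RA in KO cells were Igf2 and 3 proteases of binding proteins, in a comparison where 642 of all genes were called higher and 262 lower. Pappa, which cuts Igfbp4, lay at 0.176, 0.222 and 0.458 CPM in WT NO, 0.288, 0.727 and 0.334 in WT RA, 0.205, 0.178 and 0.140 in KO NO, and 3.34, 3.48 and 1.78 in KO RA. Every KO RA library was above all 9 others after TMM scaling, whereas by library totals alone KO RA replicate 3 had 0.706 CPM, just under the 0.716 CPM of WT RA replicate 2. Pappa was called higher in KO RA than in KO NO (log2 fold change 4.01, SE 0.59, adjusted p = 0.00482) and than in WT RA (2.67, SE 0.56, adjusted p = 0.0478), the former in 12 of 12 fits that left out a library and the latter in 2. In WT cells RA gave 0.64 (SE 0.56, adjusted p = 0.722), and the difference between the genotypes in RA response was 3.37 (SE 0.79, adjusted p = 0.286), which was not called.

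Pappa2, which cuts Igfbp5 and Igfbp3, was also called higher in KO RA than in KO NO (adjusted p = 0.0347). After rounding, KO NO held 2 estimated counts over its 3 libraries and KO RA 57, a ratio of 48.0 after scaling. A binomial 95% interval on these values was 12.7 to 406. It is only approximate, since the values do not number fragments, and it leaves out the spread between libraries. Levels of Pappa2 in KO RA, 0.297 to 1.06 CPM, overlapped those of WT RA, 0.287 to 1.41 CPM. Htra1, a secreted serine protease that can cut binding proteins, lay at 1.64, 1.39 and 1.84 CPM in KO NO and 4.78, 7.56 and 5.65 in KO RA (log2 fold change 1.88, SE 0.49, adjusted p = 0.0488). Pappa2 stayed called in 4 and Htra1 in 3 of the 12 fits without 1 library.

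Inside the cell, Irs2, an adaptor of the IGF and insulin receptors, was called higher in KO RA than in WT RA (log2 fold change 1.94, SE 0.38, adjusted p = 0.0376). It lay at 23.0, 22.3 and 8.72 CPM in KO RA and at 4.13, 5.92 and 4.11 in WT RA, and at 21.6, 17.3 and 25.3 CPM in KO NO and 6.69, 5.99 and 10.2 in WT NO. KO libraries were above WT libraries at both conditions, without a call in NO (1.49, SE 0.37, adjusted p = 0.0910), and the call in RA held in 2 of 12 fits without 1 library. With RA this separation depends on the scaling, since by library totals alone KO RA replicate 3 had 3.44 CPM, below the 3.60 to 5.99 CPM of WT RA. Mtor, the kinase of the mTOR complexes, fell with RA in KO cells from 41.2 to 50.6 CPM to 21.6 to 25.5 (log2 fold change −0.90, SE 0.18, adjusted p = 0.0190). Pik3cb, a catalytic subunit of PI3K, fell from 8.38 to 12.4 CPM to 4.46 to 5.87 (−0.98, SE 0.24, adjusted p = 0.0388). In WT cells RA gave −0.25 for Mtor and −0.95 for Pik3cb, neither called. The call of Mtor held in 9 and that of Pik3cb in 2 of the 12 fits.

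Of the remaining receptors, Igf2r, which takes up and clears Igf2, ranged over 12.7 to 13.8 CPM in WT NO, 16.3 to 24.8 in WT RA, 18.8 to 20.4 in KO NO and 22.0 to 48.0 in KO RA. RA libraries were above NO libraries in both genotypes, with log2 fold changes of 0.58 (adjusted p = 0.420) and 0.92 (adjusted p = 0.0794), although by library totals alone neither genotype was separated. The insulin receptor Insr ranged over 9.39 to 15.1 CPM outside KO RA and over 3.57 to 14.6 in it, with no call, and Insrr did not exceed 0.0991 CPM. Among the other binding proteins, Igfbpl1 lay at 1.40 to 6.21 CPM in WT NO, 5.09 to 6.55 in WT RA, 9.33 to 11.2 in KO NO and 13.0 to 20.8 in KO RA. KO libraries of Igfbpl1 were above WT libraries in both conditions, with log2 fold changes of 1.51 (SE 0.42, adjusted p = 0.140) and 1.58 (SE 0.42, adjusted p = 0.1) that were not called. By library totals alone KO RA replicate 3 had 5.12 CPM of Igfbpl1, inside the 4.56 to 5.81 CPM of WT RA. Igfbp1 did not exceed 0.436 CPM, and Igfals, which joins the ternary complex of IGFs in blood, did not exceed 0.573 CPM. Of the mRNA-binding proteins named for Igf2, Igf2bp1 lay at 170 to 188 CPM in WT NO and 70.6 to 83.0 in WT RA, and none of Igf2bp1, Igf2bp2 and Igf2bp3 was called in any comparison.

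**Figure D4:**
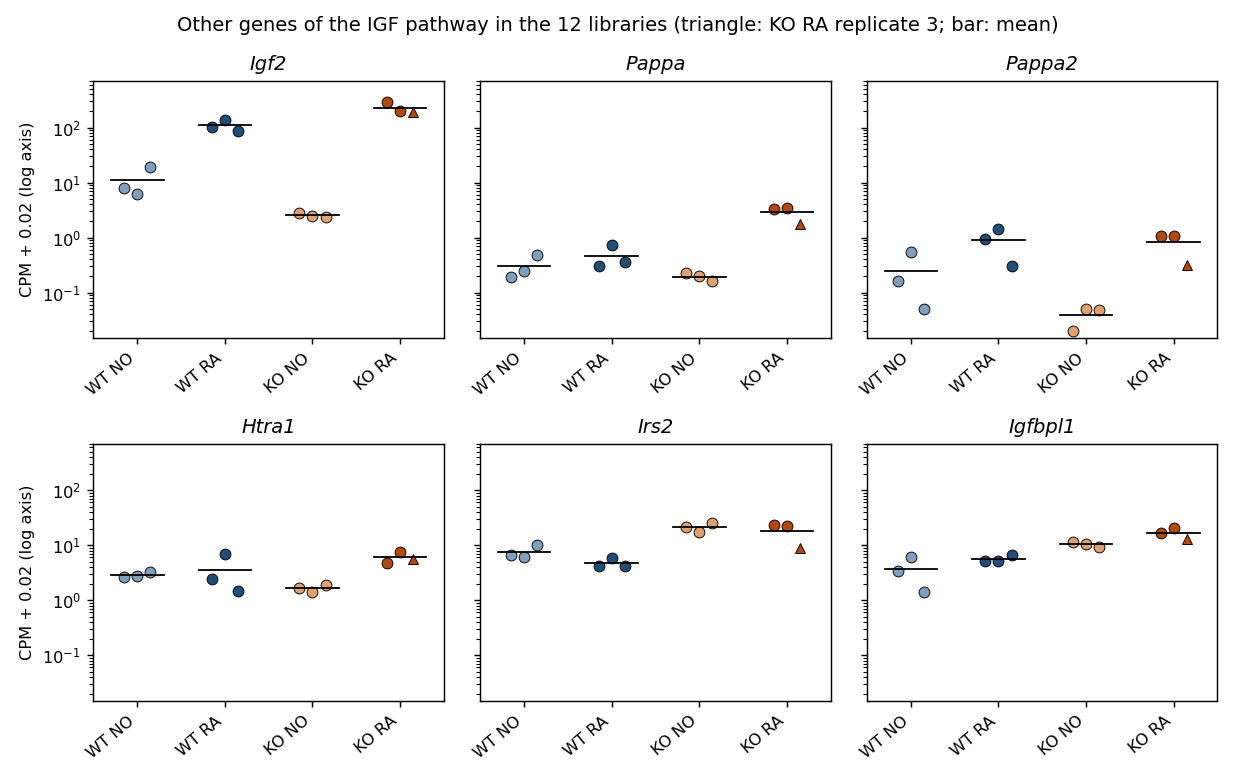
Levels of 6 further genes of the pathway in the 12 libraries, as TMM-scaled CPM plus 0.02 on a log axis, by group, with the bar the group mean and the triangle KO RA replicate 3. On this scaling, and for KO RA replicate 3 not by library totals alone, Igf2 is highest in KO RA, Pappa is raised in the 3 KO RA libraries alone, and Irs2 is higher in KO than in WT libraries without RA and, apart from the triangle at 8.72 CPM lying nearer to WT, with it.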

How the data were processed

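Polyadenylated RNA of 12 NE-4C libraries was sequenced. The authors processed the reads by the default nf-core/rnaseq route of STAR and Salmon on GRCm39, and the submitters' processing notes name DESeq2. The deposited values are estimated counts that were rescaled from TPM up to a library's own total. They are therefore length-corrected, do not number fragments and carry no normalization between libraries. In 3851 genes with a value in a single library, longer genes had smaller values (Spearman −0.685), as length correction gives.

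Counts were rounded and fitted in R 4.3.3 with edgeR 4.0.16 (TMM, filterByExpr, robust quasi-likelihood test, Benjamini-Hochberg adjustment over 16502 genes, called under 0.05), with 1 coefficient for each of 4 groups and the difference in RA response as an interaction. SEs come from the fold change and F statistic, and 95% intervals are 1.96 SE on each side. The fit was tested on simulated data. Alternatives were DESeq2 1.42.0, its size factors, 2 filters, only the groups compared, limma 3.58.1 voom, a replicate block, each library left out, and, added after seeing the data, library totals alone. The CPM of KO RA replicate 3 depends on its TMM factor.

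The family, the lists and the values read without a test were chosen with earlier results of these data known. Named are the 8 genes, called pathway genes (at most 6 a comparison), the other ligands, receptors and binding proteins, the 5 genes most like Igfbp4 and Igfbp5, Faf2, Cyp26a1 and Rarb, besides markers that moved with Igfbp5, the Igf2 mRNA-binding proteins and exon-sharing genes. Positions and transcripts came from GENCODE vM39 for GRCm39, read with Python 3.11.15. Astroglial, haematopoietic and endoderm markers summed to at most 18.6, 5.35 and 8.73 CPM in any library. One further gene outside the family that the rule for named genes covers is not reported here. Files held no column that could not be assigned to a sample.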

Additional observations from a re-analysis of the deposited data

How the results depend on the processing

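Of 676 pairs of a family fold change and an alternative, 621 kept direction and side of the threshold, 15 lost the call, 17 gained one and 23 changed sign, and none of the sign changes carried a call. DESeq2 called 2 and 5 of the family for RA in WT and in KO and 1 for the difference in RA response, limma-voom with sample quality weights 3, 6 and 1, and also 2 in KO RA against WT RA. Over all 16502 genes DESeq2 called 924, 2632 and 309 in the same order. Limma-voom called 3576, 4534 and 1001, and 2993 in KO RA against WT RA. With at least 10 counts in every library, which removed Igf1, Igfbp5 and Igfbp7, RA in WT gave 0 and RA in KO 1. That filter gave 36 and 661 calls over all 11576 genes it kept. Library totals alone, which moved the median of all genes to −0.26 for RA in WT and −0.17 in KO, called 0 of the family in KO NO against WT NO and 0 for RA in WT, and lost Igfbp4 in KO with RA. Over all 16502 genes they called 112, 0 and 140 in these comparisons, so the 0 for RA in WT holds for every gene. With each library left out, family calls ranged from 0 to 1 for KO NO against WT NO, 0 to 1 for KO RA against WT RA, 0 to 2 for RA in WT, 2 to 5 for RA in KO and 0 to 1 for the difference, each highest count outside the first being that without KO RA replicate 3. The call of Igfbp4 in KO NO was lost without any 1 of the KO NO libraries, as was that of Igf1 for RA in KO, and that of Igfbp5 in WT RA without WT NO replicate 1 or 2 or WT RA replicate 1. Calls over all genes fell in these fits too. Without a KO NO library they numbered 40 to 44 for KO NO against WT NO and 194 to 233 for RA in KO. In the fits that lost Igfbp5 they numbered 0 of 17328, 6 of 17359 and 3 of 17402 for RA in WT. These calls are of values that chose the genes, and the family counts above include such values. They describe the fits, and no test is read from them.

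For the pathway list, DESeq2 called 5 for KO NO against WT NO, 7 for KO RA against WT RA and 2 for RA in WT, and 2 for the difference, and limma-voom 16, 13, 7, 15 and 6 over all 5. Over all 16502 genes DESeq2 called 1015, 1315, 924 and 309 in the same order, and limma-voom 3575, 2993, 3576, 4534 and 1001. Fits of the compared groups alone called 6 in KO NO against WT NO, 0 in KO RA against WT RA and 2 for RA in KO. These fits called 718 of 15254, 16 of 14865 and 196 of 15307 genes. No filter and 10 counts each gave 1 in KO RA against WT RA, and 10 counts gave 0 in KO NO against WT NO. Over all genes no filter called 143 of 28864 in KO RA against WT RA. With 10 counts the calls were 80 of 11576 there and 43 in KO NO against WT NO. Library totals alone gave 0, 0, 0 and 2 for the first 4, and 112, 89, 0 and 140 over all 16502 genes. Without 1 library the calls ranged over 0 to 9, 0 to 8, 0 to 5, 2 to 12 and 0 to 2. Over all genes and alternatives, calls ranged over 40 to 3575, 16 to 2993, 0 to 3576, 140 to 4534 and 0 to 1001, so the number of genes that pass depends on these choices. The cause was not tested.

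Same-numbered libraries did not deviate together (18 correlations from −0.215 to 0.0853, against −0.135 to 0.195 between different numbers), so the numbers were not taken as pairs. With the replicate block, all-gene calls were 56, 59, 10, 467 and 0 in place of 188, 205, 67, 904 and 0, the family had 0 calls in KO NO against WT NO, and the pathway list 0 for the genotypes, untreated or treated, and 0 for RA in WT.

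Uncalled log2 fold changes that changed sign were those of Igf1 in KO NO against WT NO (−0.24 by limma-voom) and in the difference in RA response (−1.16 without WT NO replicate 1), of Igf1r for RA in WT (−0.16 by library totals), of Igfbp2 in KO RA against WT RA (0.01 by DESeq2 and by its size factors) and in the difference (−0.1 by limma-voom), of Igfbp4 for RA in WT (0.13 by limma-voom), and of Igfbp5 in KO RA against WT RA (0.01 by limma-voom, 0.17 by library totals). The other sign changes came with a library left out, over which the values ran from −0.24 to 4.55 for Igf1, 0 to 0.16 for Igf1r, −0.4 to 0.02 for Igfbp2 and −0.71 to 0.33 for Igfbp7 between untreated KO and WT cells. Between RA-treated KO and WT cells they ran from −0.16 to 0.12 for Igfbp2, −0.3 to 0.44 for Igfbp4 and −0.97 to 0.24 for Igfbp5, and for RA in WT from −0.21 to 0.27 for Igfbp4. For the difference in RA response they ran from −1.16 to 3.63 for Igf1, −0.07 to 0.46 for Igf1r and −0.07 to 0.37 for Igfbp2. Depth limits Igf1, Igfbp5 and Igfbp6 without RA, where most libraries hold under 10 counts.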
